A study of Mus musculus with 16 samples.

Results

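The 6 libraries described here came from wild-type mouse macrophages of 2 lines, 3 libraries each of the 16 in the series, all exposed to the same kind of melanoma medium. Bone marrow cells were differentiated for 7 days with 20 ng/mL of the growth factor M-CSF, and the resulting bone marrow-derived macrophages were kept for 24 h in 70% medium conditioned by YUMM1.7 mouse melanoma cells (tumor-conditioned medium, TCM). The WT TCM set is the wild-type control of the TRAP1 knockout (TRAP1 KO) set, and the JMJD3 WT TCM set is the wild-type control of the JMJD3 conditional knockout (JMJD3 cKO) set. The labels give no strain, no age, no sex, no Cre driver and no batch, and do not say whether the JMJD3 WT animals carried floxed alleles or whether replicates were separate animals. Line, culture batch, library batch and sequencing batch therefore cannot be told apart in this comparison, and the p-values reflect only library-to-library spread, possibly technical. The groups used for context are WT naive (n = 3, the same line as WT TCM, without TCM), TRAP1 KO TCM (n = 4) and JMJD3 cKO TCM (n = 3). The comparison covers autosomal genes (chromosomes 1 to 19) only. Of 50188 autosomal genes in the files, 25669 had a count in the 6 libraries and 12764 passed the filter on low counts and were tested.

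Macrophages take up states set by the signals around them. Type I interferons and interferon-gamma act through JAK kinases and STAT factors to induce antiviral genes, guanylate-binding proteins, antigen presentation and inflammatory enzymes such as Nos2, while interleukin-4 and tumor-derived signals are known for genes such as Arg1, Mrc1 and Cd163. Macrophages grown with M-CSF also divide, and they balance cholesterol synthesis, driven by SREBP2, against cholesterol efflux, driven by LXR receptors.

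The promoters of 5 genes are shown as examples that hold a match, from the interferon lists (Rsad2, Gbp2), the chemokine list (Cxcl10, which interferon is known to induce) and the cell cycle list (Top2a, Mki67). Each sequence is 300 bases from RefSeq (build GRCm38.p6, the same assembly as the mm10 of the files), 250 bases before to 50 after the transcription start, 5′ to 3′ on the strand of the gene. Capitals mark matches, on either strand, to GAAANNGAAA (N is any base), the core of the interferon-stimulated response element, in the first 3 promoters, and to TTTGAA, the cell cycle homology region, in the other two. The windows lie at chr12:26456403-26456702 (minus strand, Rsad2), chr3:142620413-142620712 (plus strand, Gbp2), chr5:92348840-92349139 (minus strand, Cxcl10), chr11:99024140-99024439 (minus strand, Top2a) and chr7:135716330-135716629 (minus strand, Mki67).
Rsad2: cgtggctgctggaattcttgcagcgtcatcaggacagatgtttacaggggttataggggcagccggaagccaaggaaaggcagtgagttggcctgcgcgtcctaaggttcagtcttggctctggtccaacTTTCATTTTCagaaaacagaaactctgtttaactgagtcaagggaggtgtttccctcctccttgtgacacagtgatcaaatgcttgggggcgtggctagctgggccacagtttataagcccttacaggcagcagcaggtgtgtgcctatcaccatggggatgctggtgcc
Gbp2: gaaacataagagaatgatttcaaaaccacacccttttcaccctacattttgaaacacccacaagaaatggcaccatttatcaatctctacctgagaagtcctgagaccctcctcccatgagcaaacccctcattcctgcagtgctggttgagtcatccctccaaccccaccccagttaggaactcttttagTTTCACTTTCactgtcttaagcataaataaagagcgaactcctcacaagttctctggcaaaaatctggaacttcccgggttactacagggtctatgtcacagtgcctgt
Cxcl10: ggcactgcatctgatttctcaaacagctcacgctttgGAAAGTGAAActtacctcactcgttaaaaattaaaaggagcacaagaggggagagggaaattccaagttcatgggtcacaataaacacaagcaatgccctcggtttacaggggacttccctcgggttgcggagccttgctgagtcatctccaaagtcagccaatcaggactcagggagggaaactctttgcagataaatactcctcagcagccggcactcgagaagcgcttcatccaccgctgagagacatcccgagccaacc
Top2a: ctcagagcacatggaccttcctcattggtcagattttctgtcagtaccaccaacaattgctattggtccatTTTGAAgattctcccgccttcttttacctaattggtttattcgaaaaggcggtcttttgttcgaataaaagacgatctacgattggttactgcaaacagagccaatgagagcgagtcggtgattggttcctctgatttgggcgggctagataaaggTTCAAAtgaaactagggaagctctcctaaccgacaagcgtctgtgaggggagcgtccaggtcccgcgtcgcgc
Mki67: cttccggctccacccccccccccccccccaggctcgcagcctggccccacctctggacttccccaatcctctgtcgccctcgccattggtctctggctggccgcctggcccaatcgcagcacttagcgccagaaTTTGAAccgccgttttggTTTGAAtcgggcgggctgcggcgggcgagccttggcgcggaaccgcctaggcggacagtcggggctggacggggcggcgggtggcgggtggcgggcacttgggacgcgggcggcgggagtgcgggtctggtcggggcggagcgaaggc
The interferon element lay in 12 of 23 promoters of the type I interferon list that had a sequence and in 10 of 14 of the interferon-gamma list, against 4.13% of the 9158 tested genes with a promoter and 3.46% of all 31396 autosomal promoters. Of the other promoters read, those of Cd274 and Ifit2 held no match to the interferon element in the window, and those of the cell cycle genes Rrm2 and Ccnb1 none to the cell cycle homology region. The letters TTTGAA lay in 12 of 24 promoters of the cell cycle list, against 14.4% of the tested genes, and the E2F motif TTTNGCGC in 5 of 24, against 2.89% of them. A sterol regulatory element spelled TCACNCCAC was found in 1 of 16 cholesterol synthesis promoters, that of Hmgcs1, against 1.4% of the tested genes. A match is a string of letters and not a measured binding site.

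Total counts were 15361604 to 19326128 in the WT TCM libraries and 15815651 to 17544225 in the JMJD3 WT TCM libraries. Mitochondrial transcripts took 1.25% to 1.28% of counts in WT TCM and 0.744% to 0.786% in JMJD3 WT TCM, ribosomal protein genes 2.09% to 2.12% and 1.23% to 1.28%, and long noncoding RNAs 0.730% to 0.761% and 1.02% to 1.05%. The sex-linked gene Xist had 0 counts in all WT TCM libraries and 12133 to 13569 in JMJD3 WT TCM, while Y-linked Ddx3y had 1324 to 1817 and 0 counts, so the sex of the animals moved with the line as well. The part of these differences in the results below was not tested. Of the genes targeted in the series, Trap1 was at 64.3, 74.8 and 72.8 CPM (counts relative to library totals scaled across the 16 libraries, the usual CPM unit) in WT TCM, at 53.7, 50.2 and 51.1 CPM in JMJD3 WT TCM and at most at 0.0557 CPM in TRAP1 KO TCM. Kdm6b, which encodes JMJD3, was at 24.3 to 27.9 CPM in JMJD3 WT TCM and at 25.4 to 27.2 CPM in the libraries labelled JMJD3 cKO TCM, so the gene-level count gives no sign of the labelled knockout, though a partial deletion could leave this total as it is.

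Between the sets, 8339 of 12764 genes were called (65.3%; edgeR quasi-likelihood test, adjusted p under 0.05). In JMJD3 WT TCM 4025 genes were higher (31.5% of those tested) and 4314 were lower (33.8%). Most calls were small. The median size of a called change was 0.50 on the log2 scale, and 1091 genes were called at least 2-fold higher (8.55%) and 708 at least 2-fold lower (5.55%). The median change of all tested genes was -0.02. With upper quartile scaling the median gene moved up by 0.114 and the share of higher genes among the calls went from 48.3% to 61.6%, so the sign of a small change can depend on the scaling. Called share rose with level, from 41.6% among the 2553 genes of lowest mean CPM to 85.5% among the 2553 of highest. The libraries of the 2 sets correlated with each other at 0.9591 to 0.9616 across the tested genes (log2 of CPM + 1), below the 0.9961 to 0.9971 within a set.

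**Figure D1:**
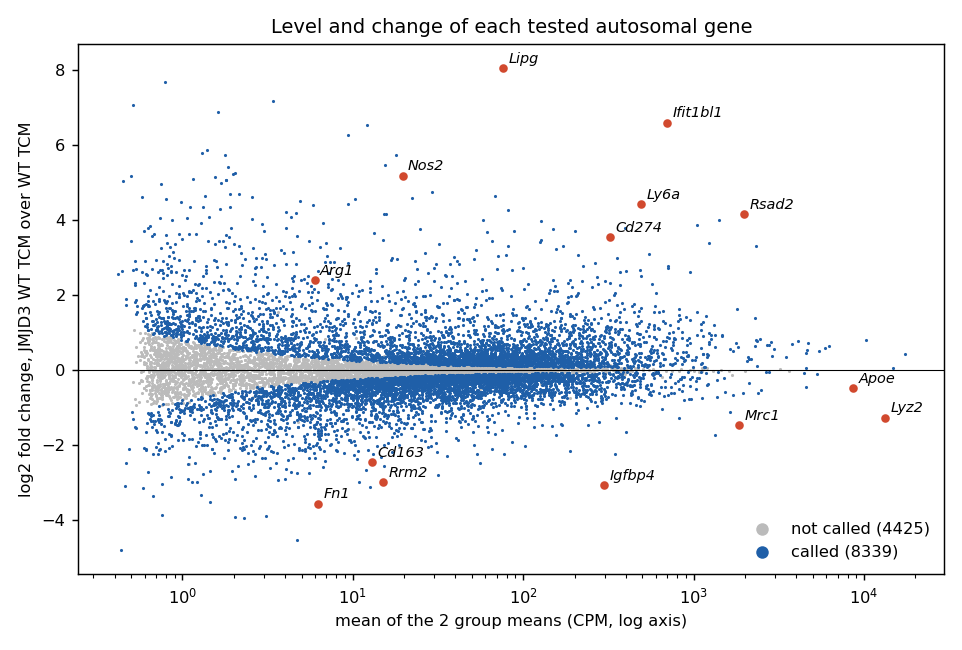
Level and change of each of the 12764 tested autosomal genes. The x axis is the mean of the 2 group means in CPM (log axis), the y axis the log2 fold change of JMJD3 WT TCM over WT TCM, with called genes in blue, others in grey and 14 named genes in red. Rsad2 and Ifit1bl1 combine a high level with a large rise, and Lyz2 and Mrc1 a high level with a fall.

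The largest rises were those of a lipase gene and of a relative of an antiviral gene. Ifit1bl1, a relative of the antiviral Ifit1, was at 14.5, 15.6 and 12.8 CPM in WT TCM and at 1322, 1389 and 1434 CPM in JMJD3 WT TCM, a 96.6-fold ratio of means (log2 6.59 ± 0.04, where the error of a log2 change is its SE, adjusted p = 8.5e-54). Lipg, endothelial lipase, was at 0.581, 0.692 and 0.394 CPM and at 144, 155 and 153 CPM (log2 8.04 ± 0.10, adjusted p = 2.1e-57). The groups were far apart for each of them, and the rule for naming these genes required that they did not overlap. Other large rises with a mean of at least 5 CPM were the transcription factor Lhx2 (log2 6.52), Sectm1a (6.27), the chemokine Cxcl11 (5.73), Plac8 (5.46), the inducible nitric oxide synthase Nos2 (5.17), the interferon-induced GTPase Tgtp1 (4.73), the chemokine Ccl8 (4.64) and Rhou (4.41). Gbp2b was nearly absent from 1 set, with 0, 2 and 0 counts in WT TCM against 94, 89 and 116, a ratio of 173 with a 95% counting interval of 47.5 to 1436 (exact Clopper-Pearson, counting error only).

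Among the largest falls, the matrix protein fibronectin, Fn1, was at 11.1, 11.5 and 12.1 CPM in WT TCM and at 1.1, 0.72 and 1.06 CPM in JMJD3 WT TCM (log2 -3.57 ± 0.18, adjusted p = 2.7e-25). Igfbp4, which binds insulin-like growth factors, was the most abundant of them, at 533, 533 and 532 CPM against 61.7, 62.1 and 65 CPM (log2 -3.08 ± 0.03, adjusted p = 2.5e-59). Neither pair of groups overlapped, which the rule for naming these genes required. Pald1 (log2 -3.11), the ribonucleotide reductase subunit Rrm2 (-3.00), the fatty acid receptor Gpr84 (-2.99), the phosphatase Inpp4b (-2.80), the uridine kinase Uck2 (-2.76), the basement membrane protein Nid2 (-2.67) and Rapsn (-2.58) followed.

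**Figure D2:**
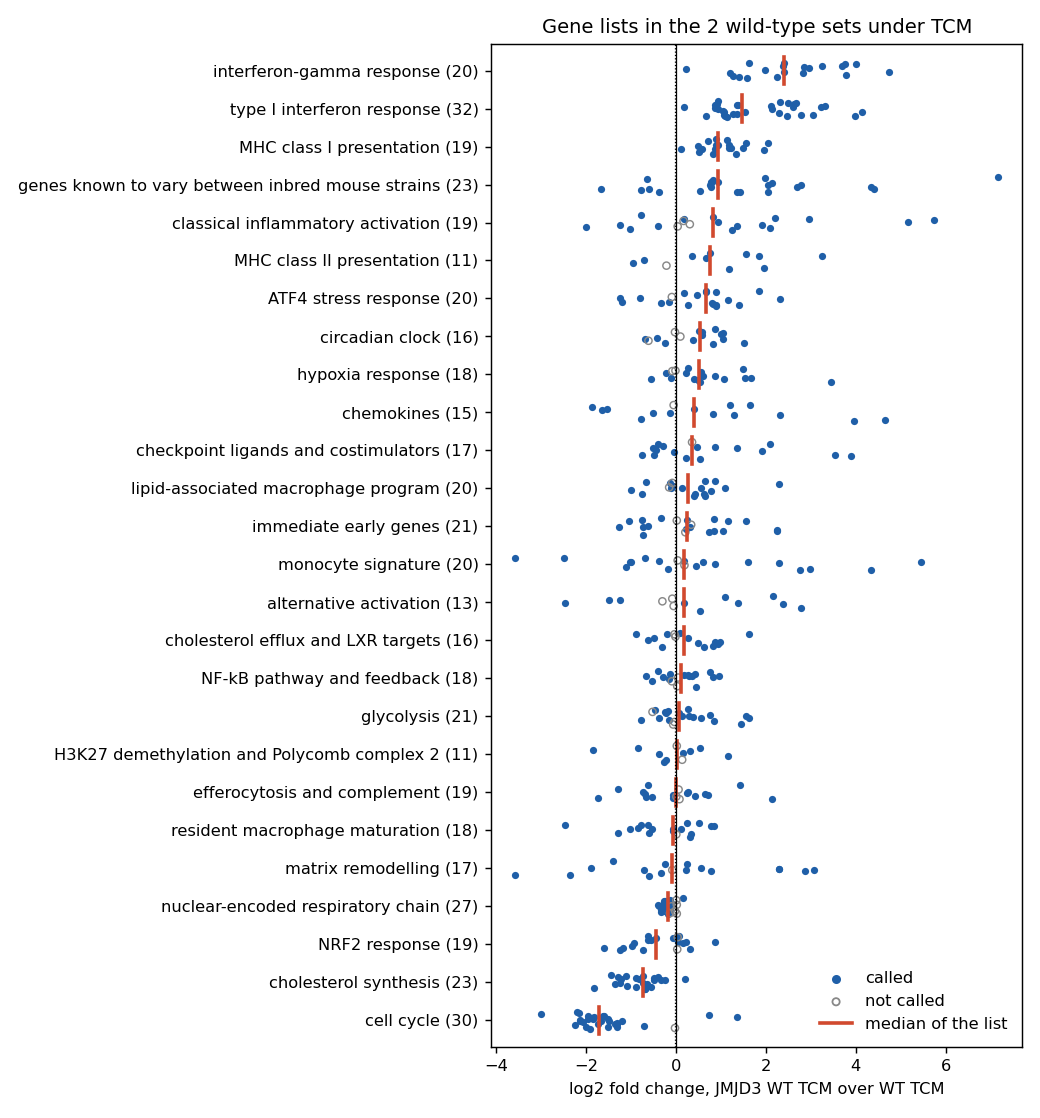
Log2 fold changes of the members of 26 gene lists, 1 row a list with the number of tested members in brackets, ordered by the median (red bar). Filled points are called, open points are not, and the dotted line is the median of all tested genes at -0.02. The interferon and MHC class I lists lie wholly to the right, and cell cycle and cholesterol synthesis almost wholly to the left.

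All 32 members of the type I interferon response list rose in JMJD3 WT TCM, with a median log2 change of 1.46, against 31.5% higher over all genes. Rsad2, the antiviral enzyme viperin, was at 214, 215 and 203 CPM in WT TCM and at 3595, 3823 and 3840 CPM in JMJD3 WT TCM (log2 4.15 ± 0.03, adjusted p = 1.4e-62). Cmpk2, a nucleotide kinase whose gene lies next to Rsad2, went from 168 ± 5.77 to 2639 ± 107 CPM (SD, n = 3). Ifit2, which binds viral RNA, was at 427, 417 and 423 CPM against 4171, 4121 and 4313 CPM. Every library of JMJD3 WT TCM was above every library of WT TCM for these genes, as for all 32 members. Over all tested genes the groups did not overlap in 8686 (68.1%). The sizes varied within the list. The antiviral effectors Mx1 (2.78), Ifit3 (2.60) and Isg15 (2.49) were above its median, the effectors Oas2 (1.09), Bst2 (0.93) and Oasl2 (0.67) and the signalling members Irf7 (1.39) and Stat2 (1.35) were below it, and Irf9, the DNA-binding partner of the STAT complex, was lowest at 0.17. All 32 were also above their WT naive means. WT naive lay above WT TCM for most of them: in WT TCM against WT naive 27 of 32 were called lower and 3 higher, where 43.9% of 13132 tested genes were called, 22.4% higher and 21.5% lower. That comparison shares its WT TCM libraries with the present one, so the values are given side by side and nothing is read from their sign.

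Ligands and receptors of this pathway did not follow a single direction. Ifnb1, the gene of interferon-beta, had 0, 1 and 1 counts in the WT TCM libraries and 41, 40 and 40 in JMJD3 WT TCM, a ratio of 70.1 with a 95% counting interval of 19 to 585 (exact Clopper-Pearson). Those are 2.64, 2.88 and 2.66 CPM, a low level. The files hold 20 type I and type III interferon genes, of which 2 had a count in the 6 libraries and only Ifnb1 was tested. Ifng, the gene of interferon-gamma, had 0 counts in WT TCM and 1 in JMJD3 WT TCM. The receptor chains Ifnar1 (281, 277 and 277 CPM against 234, 227 and 231 CPM, log2 -0.27) and Ifngr1 (274, 266 and 274 CPM against 178, 175 and 174 CPM, log2 -0.63) fell, and Ifngr2 rose by 0.20. For Ifnar2 the log2 difference was 0.05 (adjusted p = 0.17). Of the kinases, Jak2 rose by 1.20 and Tyk2 by 0.70, and Jak1 gave 0.06 (adjusted p = 0.081). Irf3, which induces interferon-beta, gave -0.06 (adjusted p = 0.36). These ligand and receptor genes were named after their values were seen.

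Interferon-gamma response genes rose by more, 20 of 20 tested with a median of 2.40, against 31.5% higher over all genes. Ido1, the remaining member, was too low to be tested. Gbp2, a guanylate-binding protein that attacks membranes around pathogens, was at 55, 51.5 and 53.6 CPM in WT TCM and at 718, 760 and 731 CPM in JMJD3 WT TCM (log2 3.79 ± 0.03, adjusted p = 1.5e-63). Gbp3 (3.76), Gbp5 (3.70) and the immunity-related GTPase Iigp1 (2.84) were among the others. Irf1, a transcription factor that drives many of these genes, went from 82.1 ± 3.87 to 245 ± 6.53 CPM, and Socs1, a brake on JAK signalling, from 5.24 ± 1.60 to 24.5 ± 2.80 CPM. Irf8, which macrophages express at steady state, changed least at 0.23. Members of the Gbp, Ifit, Tgtp and Oas families are near copies of each other, and reads shared between them make their single values uncertain, since the sources used here do not say how such reads were counted.

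Antigen presentation followed in unequal measure. On the MHC class I side all 19 members were higher, by a median of 0.94. The nonclassical H2-T22 was at 243, 223 and 235 CPM against 946, 963 and 972 CPM (log2 2.04), while the abundant classical H2-K1 went from 3526 ± 45.4 to 5783 ± 86.0 CPM (0.71) and B2m, their shared light chain, from 3804 ± 66.3 to 5457 ± 149 CPM (0.52). The peptide transporter Tap1 (1.23) and the immunoproteasome subunit Psmb9 (1.13) rose as well. On the class II side 8 of 11 tested members rose and 2 fell, with a median of 0.75. Over all genes 31.5% were higher and 33.8% lower. Ciita, the master regulator of class II, was low, at 0.687, 0.404 and 0.329 CPM against 4.06, 5.33 and 4.72 CPM (log2 3.25). H2-Aa was at 15.9, 19.7 and 19.5 CPM against 70.4, 62.9 and 64.4 CPM (1.85), and the invariant chain Cd74 at 115, 108 and 112 CPM against 340, 324 and 322 CPM (1.56). The 2 that fell were the thiol reductase Ifi30 (-0.70) and H2-DMb2 (-0.96). The H2-DMb2 call was lost with DESeq2 (adjusted p = 0.055) and without WT TCM replicate 3, JMJD3 WT TCM replicate 2 or JMJD3 WT TCM replicate 3 (log2 -0.86, -0.69 and -0.85). For H2-Aa and Cd74 the WT naive means were 54.9 and 264 CPM, between those of WT TCM and JMJD3 WT TCM.

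The classical and alternative activation lists were each split. Of 19 classical inflammatory genes 11 rose and 5 fell (median 0.82), against 31.5% higher and 33.8% lower over all genes. Nos2 transcripts were at 0.898, 0.98 and 1.31 CPM in WT TCM and at 37.3, 39.8 and 37.1 CPM in JMJD3 WT TCM. Acod1, which makes itaconate, was at 60.4, 59.7 and 57.9 CPM against 249, 248 and 267 CPM (log2 2.10), and Cxcl9, a chemokine for lymphocytes, was measured at 12.4, 11.6 and 11 CPM against 83.6, 92 and 95.7 CPM (2.95). The genes that fell were those of the inflammasome sensor Nlrp3 (133 ± 3.43 to 55.8 ± 4.07 CPM, -1.25), interleukin-1 beta (Il1b, 15.4 ± 0.449 to 7.64 ± 0.707 CPM, -1.01), tumor necrosis factor (Tnf, 45.2 ± 2.27 to 26.3 ± 0.954 CPM, -0.78), the formyl peptide receptor Fpr1 (-2.0) and the costimulator Cd80 (-0.39).

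Of 13 alternative activation genes 7 rose and 3 fell (median 0.19), against 31.5% higher and 33.8% lower over all genes. Mrc1, the mannose receptor, was at 2707, 2683 and 2754 CPM in WT TCM and at 993, 960 and 961 CPM in JMJD3 WT TCM (log2 -1.48 ± 0.02, adjusted p = 3e-51), and the haemoglobin scavenger receptor Cd163 at 22.9, 20.3 and 22.1 CPM against 4.19, 3.6 and 4.05 CPM (-2.46). The lectin Clec10a fell by 1.24. In the opposite direction Arg1, arginase 1, was at 1.74, 1.84 and 2.17 CPM against 10.4, 11.1 and 8.5 CPM (2.39 ± 0.17, adjusted p = 2.2e-19). The lipid-sensing receptor Pparg (1.39), the transglutaminase Tgm2 (1.09), Socs2 (2.15) and the chitinase-like Chil3 (2.79) also rose, the last of them from 0.555 to only 3.91 CPM. Nos2 and Arg1, enzymes that compete for arginine, were thus higher in the same set, and Mrc1 and Arg1 went opposite ways.

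**Figure D3:**
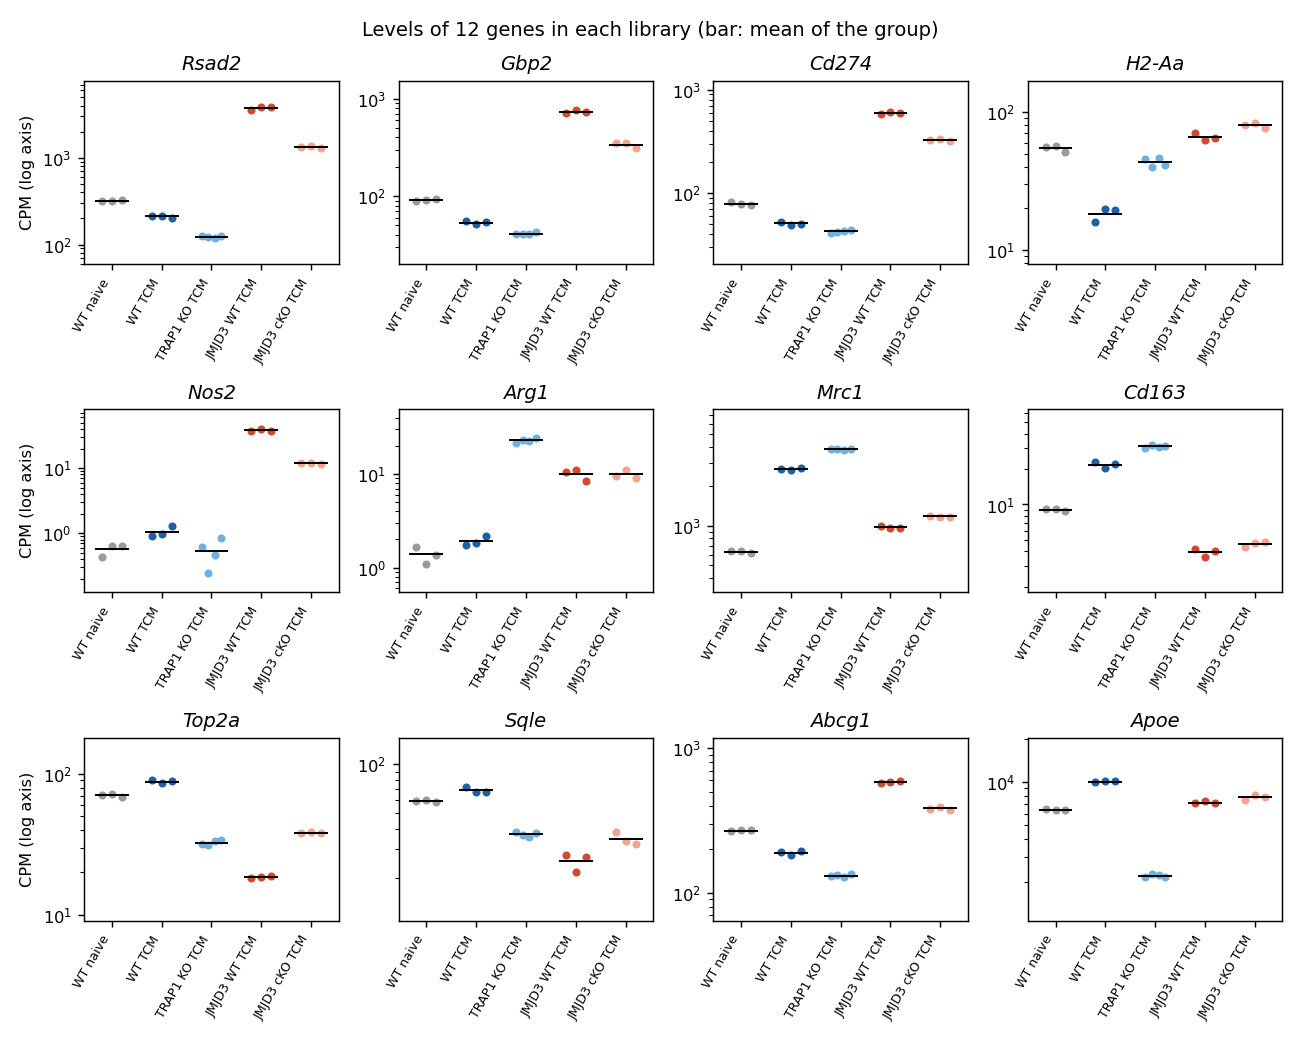
CPM (log axis) of 12 genes in every library, by group, with the group mean as a bar. In Rsad2, Gbp2, Cd274 and Nos2 both JMJD3 line groups lie above the other 3 groups, in Mrc1 and Cd163 they lie below the other TCM groups, and in Apoe TRAP1 KO TCM lies lowest.

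Among checkpoint ligands and costimulators 9 of 17 rose and 7 fell (median 0.36), against 31.5% higher and 33.8% lower over all genes. Cd274, the gene of PD-L1 and a target of both interferons, was at 52.6, 49.5 and 50.2 CPM in WT TCM and at 580, 605 and 594 CPM in JMJD3 WT TCM (log2 3.54 ± 0.03, adjusted p = 6.4e-62). The costimulator Cd86 (22.6, 22.4 and 21.5 CPM against 82.9, 84.1 and 84.6 CPM), the anti-inflammatory cytokine Il10 (3.75, 3.98 and 4.6 CPM against 17.5, 16.6 and 18.6 CPM) and Cd40 (1.36) rose beside it. Tgfb1 (-0.49), Vsir (-0.44) and Havcr2 (-0.51) fell, by less. The growth factor receptor Tgfbr2 was at 412, 417 and 418 CPM against 320, 321 and 315 CPM (-0.38), and Vegfa at 109, 109 and 111 CPM against 161, 152 and 151 CPM (0.50).

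Of 15 chemokines 8 were higher and 6 lower, against 31.5% and 33.8% of all genes. The interferon-induced Cxcl10 was at 16.2, 14.4 and 15.1 CPM against 226, 233 and 259 CPM (log2 3.97), and the monocyte attractants Ccl2 and Ccl7 were higher by 1.29 and 1.65. The neutrophil attractant Cxcl2 (12.9 ± 0.613 to 4.46 ± 0.393 CPM, -1.54), the platelet factor Pf4 (-1.65), Ccl6 (-0.78), Cxcl14 (-0.51) and the macrophage inflammatory protein Ccl3 (-0.14) were lower. The NF-kB and immediate early counts stand against the same shares of all genes. Of 18 NF-kB pathway genes 9 were higher and 6 lower, with a median log2 change of 0.12. None of them was past 2-fold, where 14.1% of all genes were called and at least 2-fold. Of 21 immediate early genes 11 rose and 7 fell, with Atf3 (134, 124 and 127 CPM against 593, 628 and 618 CPM) and the phosphatase Dusp1 (2.24) highest and Nr4a1 (-1.26) lowest.

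Proliferation genes separated the sets in the other direction. Of 30 cell cycle genes 27 fell and 2 rose (median -1.70), and 26 fell at least 2-fold. Over all genes 33.8% were lower and 31.5% higher, and 5.55% were at least 2-fold lower. Top2a, the topoisomerase that untangles chromosomes at mitosis, was at 89.9, 86.6 and 88.4 CPM in WT TCM and at 18.2, 18.7 and 18.8 CPM in JMJD3 WT TCM (log2 -2.25 ± 0.06, adjusted p = 1.9e-40). The proliferation marker Mki67 was at 80.3, 81.1 and 83.8 CPM against 19.3, 19.3 and 22.4 CPM, and Rrm2, which supplies deoxynucleotides, at 26.2, 26.5 and 28 CPM against 3.93, 2.88 and 3.19 CPM. No library of 1 set reached the range of the other for these genes, as in 68.1% of all tested genes. The falls covered replication licensing (Mcm3 -1.51, Mcm7 -1.96), S phase cyclins (Ccne2 -2.07, Ccna2 -2.13) and mitosis (Plk1 -2.21, Cdc20 -2.16, Ccnb1 -2.13). The 2 that rose were cyclin D2, Ccnd2 (56, 53.7 and 54 CPM against 136, 138 and 148 CPM, 1.37), and the replication clamp Pcna (0.73), and cyclin D1, Ccnd1, gave -0.02 (adjusted p = 0.58). In bulk RNA fewer dividing cells and less of these RNAs per cell cannot be told apart. The Polycomb subunits Ezh2 (-0.84) and Phf19 (-1.84) fell with them, while Kdm6b, the demethylase of the same histone mark, rose from 11.3, 14 and 9.47 to 27.9, 26.1 and 24.3 CPM (1.16). The Polycomb genes Jarid2 (0.53), Ezh1 (0.32) and Mtf2 (0.16) rose too. Over the H3K27 list of 11 tested genes 4 rose and 5 fell, against 31.5% higher and 33.8% lower over all genes.

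Cholesterol synthesis was lower as a block, 22 of 23 genes down and 1 up (median -0.73), with 8 falls of at least 2-fold. Over all genes 33.8% were lower and 31.5% higher, and 5.55% were at least 2-fold lower. Sqle, squalene epoxidase, was at 72.6, 67.1 and 68 CPM in WT TCM and at 27.5, 21.8 and 26.8 CPM in JMJD3 WT TCM (log2 -1.44 ± 0.06, adjusted p = 1.2e-26). The transport protein Stard4 changed most (-1.81), Cyp51, which removes a methyl group from lanosterol, fell by 1.29, and the regulator Srebf2 (-0.49) changed less. The gene that rose, Ggps1 (0.21), makes geranylgeranyl groups rather than sterols. On the efflux side 9 of 16 genes rose and 5 fell: Abcg1 was at 190, 183 and 196 CPM against 578, 588 and 590 CPM (1.63) and the LXR gene Nr1h3 rose by 0.87, but Abca1 (-0.61) and Apoe (9954, 10094 and 10066 CPM against 7102, 7329 and 7084 CPM, -0.49) fell.

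Energy and stress lists had median changes from -0.44 in the NRF2 response to 0.67 in the ATF4 stress response. Their counts stand against 31.5% higher and 33.8% lower over all genes. Of 21 glycolysis genes 11 rose and 7 fell, led by the hexokinase Hk3 (438, 433 and 445 CPM against 1167, 1230 and 1204 CPM) and the regulator Pfkfb3 (1.63). Of 18 hypoxia response genes 13 rose and 3 fell, with Egln3 (3.44) and Ankrd37 (1.5) among the rises. Of 27 nuclear genes of the respiratory chain 20 fell and 1 rose with a median of only -0.17, and upper quartile factors gave 10 lower and 4 higher. The ATP synthase subunit Atp5b was at 638, 643 and 635 CPM against 486, 484 and 487 CPM. The ATF4 stress response had 14 of 20 genes higher and 5 lower (Trib3 2.32, Ddit3 1.84, Asns 0.66, with Slc7a11 at -1.25 and Psat1 at -1.20), and the NRF2 antioxidant response 11 of 19 lower and 6 higher, including the glutathione synthesis genes Gclc (-1.17) and Gclm (-0.94). Gapdh, a common reference gene, ranged from 15.9 to 164 CPM within WT TCM alone and is uncertain.

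Macrophage identity genes did not move together, and the counts of these lists stand against 31.5% higher and 33.8% lower over all genes. Monocyte genes were 10 of 20 higher and 8 lower, from Plac8 (0.475, 0.807 and 0.789 CPM against 28.6, 30.9 and 31.5 CPM) and Ly6c2 (0.639 to 5.26 CPM) to the coagulation factor F13a1 (94.9, 93 and 96.2 CPM against 16.6, 16.8 and 17.3 CPM, -2.49). Of 18 resident macrophage genes 7 rose and 10 fell, with the transcription factor Maf at -0.77, and Cd163 and Marco (-1.01) among the falls. The lipid-associated program had 11 of 20 higher and 7 lower, led by Cst7 (2.29) and with Itgax at -1.0, and Spp1 gave -0.15 (adjusted p = 0.12). In efferocytosis and complement 7 of 19 rose and 9 fell, from Cd300lf (2.13) to the scavenger receptor Stab1 (2035, 2060 and 2043 CPM against 618, 636 and 599 CPM, -1.73). Matrix genes were 8 higher and 8 lower of 17: the collagenase Mmp13 (16.8, 15.7 and 18.2 CPM against 140, 141 and 142 CPM) rose, and Mmp9 (-1.88) and Plau (-1.40) fell. Of 16 circadian genes 10 rose and 3 fell, with the repressors Nr1d2 (1.52), Per2 (1.04) and Cry1 (1.04) higher and the activator Arntl (-0.68) lower.

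Since strain is not given, genes known to differ between inbred mouse strains were examined as a list of their own. All 23 tested members were called, 18 higher and 5 lower in JMJD3 WT TCM, against 65.3% of all genes. Ly6a was at 44, 46.9 and 42.1 CPM against 909, 955 and 966 CPM (log2 4.41), and Ifi202b, Wdfy1 (2.69) and Naip1 (2.05) were higher, while Nlrp1a (-1.66), Alad (-0.59) and Glo1 (-0.65) were lower. Members such as Ly6a and Gbp2b are known to respond to interferon too, and Mx1 and Mx2 are also on the type I interferon list, so strain and interferon response cannot be told apart here. Nnt, which is partly deleted in the C57BL/6J substrain, had 8 to 15 counts in WT TCM and 5 to 9 in JMJD3 WT TCM and was not tested. By position, changes of at least 2-fold were densest at chromosome 19 from 10 to 15 Mb, in 24 of 55 tested genes, with the Ms4a cluster (Ms4a4c 182, 192 and 186 CPM against 1215, 1178 and 1264 CPM), against 14.1% of all genes. Among the other dense windows, chromosome 1 from 85 to 90 Mb held 19 of 47, around Sp140 (2.05), chromosome 1 from 170 to 175 Mb held 28 of 82, among them Ifi205 (3.31) and Slamf7 (2.63), and chromosome 11 from 80 to 85 Mb 20 of 62, among them Slfn4 (3.37) and Ccl8. Those are clusters of related genes, and the windows were ranked after the changes were known.

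The label of macrophage held against its markers in each library. The summed level of 12 defining genes was 28711 to 29426 CPM in WT TCM and 18538 to 18916 CPM in JMJD3 WT TCM, none of them under 1 CPM, and the difference was mostly Lyz2, lysozyme (19040, 18624 and 18465 CPM against 7978, 7507 and 7675 CPM). Adgre1 (F4/80) was at 2973, 2962 and 2932 CPM against 2059, 2009 and 2011 CPM, Csf1r fell by 0.59 and Cd68 rose by 0.34. Markers of other cells differed between the sets. Osteoclast genes (7 markers) summed to 95.9 to 101 CPM in WT TCM against 145 to 154 CPM in JMJD3 WT TCM, mostly Atp6v0d2. WT naive was at 194 to 204 CPM. Of the 4 osteoclast markers tested 3 were higher, Ctsk (log2 2.12), Acp5 (1.29) and Atp6v0d2 (0.16), and 1 was lower, Dcstamp (-1.25). Over all genes 31.5% were higher and 33.8% lower. Calcr, Ocstamp and Oscar were too low to be tested. Stromal fibroblast genes summed to 0.173 to 0.634 against 1.1 to 1.73 CPM and mast cell and basophil genes to 0.197 to 0.461 against 1.13 to 1.44 CPM. Neutrophil genes summed to 11.2 to 14.5 CPM against 45.1 to 49.6 CPM over 13 markers, of which Ly6g was at 0, and WT naive was at 68.2 to 71 CPM. Dendritic cell genes (8 markers) summed to 1.58 to 2.48 CPM against 11 to 12.6 CPM, mostly Xcr1 (0.475, 0.519 and 0.46 CPM against 7.93, 7.05 and 9.56 CPM), with Cd209a at 0. Natural killer cell genes (6 markers, Eomes at 0) reached at most 0.115 CPM against 1.2 to 1.48 CPM, mostly Gzmb, B cell genes 2.63 to 5.39 against 7.49 to 8.13 CPM and T cell genes 31 to 32.5 against 35.1 to 38 CPM, nearly all of it Cd4. Of 7 melanoma genes Tyr, Dct, Tyrp1 and Sox10 were at 0 in all 6 libraries, and the sum of 84.1 to 94.3 against 108 to 111 CPM was nearly all Mitf, which macrophages express. Megakaryocyte genes, 604 to 614 against 180 to 203 CPM, were nearly all Pf4. The part of such cells in the gene changes was not tested.

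The other pair of sets from the same lines, JMJD3 cKO TCM and TRAP1 KO TCM, shares no library with the wild-type pair. Its sets are labelled as knockouts of different genes, although Kdm6b counts give no sign of it in the JMJD3 set. Xist had 17411 to 19932 counts in JMJD3 cKO TCM and at most 1 in TRAP1 KO TCM, so sex moved with the line here too. The gap in this pair holds line, sex, batch and knockouts together, and the part of each was not tested. There 8154 of 13411 genes were called (60.8%), 3937 higher (29.4%) and 4217 lower (31.4%) in JMJD3 cKO TCM. Across the 12657 genes tested in both pairs the log2 changes correlated at 0.68. That is a description across genes, which are not independent and share the line, sex and batch of each set. Of the 8269 genes called between the wild types and tested in the knockouts, 7016 (84.8%) had the same sign there. Of the 8269, 5580 had the same sign and were called in the knockout pair, and 574 had the opposite sign and were called. All 32 type I interferon genes (median 1.37), all 20 interferon-gamma genes (1.89) and all 19 MHC class I genes (0.79) were higher again. Cell cycle and cholesterol synthesis did not repeat: 13 of 30 cell cycle genes were higher and 10 lower (median 0.14), and 9 of 23 cholesterol synthesis genes were higher and 4 lower (0.09).

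**Figure D4:**
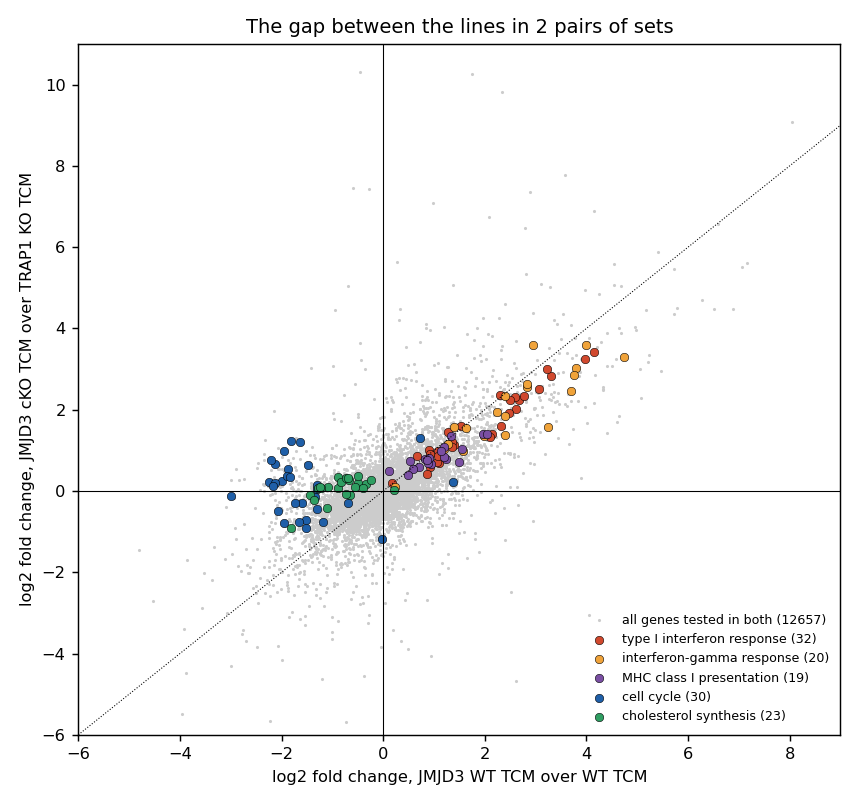
The gap between the JMJD3 and TRAP1 sets in 2 pairs, as log2 fold changes of the wild types (x axis) and the knockouts (y axis). Grey points are the 12657 genes tested in both, coloured points the members of 5 lists, and the dotted line marks equal gaps. Interferon and MHC class I genes lie in the upper right, many of them below the line, and most cell cycle and cholesterol synthesis genes lie left of zero, with y values on either side of it.

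The difference of the 2 gaps was tested directly over the 13 libraries, a contrast added after the values were known, and 5260 of 13839 genes were called (38.0%), 2640 with a higher gap between the wild types (19.1%) and 2620 with a lower one (18.9%). Cell cycle had 28 of 30 genes with a lower difference and cholesterol synthesis 22 of 23. For Top2a the gap was -2.25 between the wild types and 0.23 between the knockouts, with 18.6 ± 0.329 CPM in JMJD3 WT TCM, 88.3 ± 1.68 CPM in WT TCM, 38.1 CPM in JMJD3 cKO TCM and 32.6 CPM in TRAP1 KO TCM (difference -2.48, adjusted p = 1.4e-49). The knockout means lay between those of the wild types. Arg1 had the opposite sign in each pair, 2.39 and -1.21 (difference 3.59, adjusted p = 1.5e-34), since TRAP1 KO TCM had the highest Arg1 of all groups at 21.6 to 24.5 CPM. Apoe went from -0.49 to 1.81, with TRAP1 KO TCM at 2220 CPM against 10038 CPM in WT TCM. Nlrp1a stood at 0.0498 CPM in JMJD3 cKO TCM against 5.33 CPM in JMJD3 WT TCM. Its gap was -1.66 between the wild types and -7.19 between the knockouts. For Cd274 (3.54 and 2.92) and Rsad2 (4.15 and 3.42) the gap between the wild types was larger in size but had the same sign in each pair.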

How the data were processed

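Raw counts per Ensembl gene (GENCODE M21 names and positions) were used as the authors deposited them. HISAT, StringTie, Bowtie2, RSEM and build mm10 are listed, with no version or role, in the submitters' processing notes. The labels' protocols give ribosomal RNA depletion and stranded libraries. Autosomal counts were scaled by TMM factors from the 16 libraries, genes were kept by filterByExpr (minimum of 10 counts), and the 3 against 3 comparison was fitted with edgeR 4.0.16 (R 4.3.3), quasi-likelihood test, robust, with Benjamini-Hochberg adjustment over all genes tested and calls at an adjusted p under 0.05. DESeq2 1.42.0 was an alternative. The fit was tested on simulated data. No pair of libraries was identical. Named genes are the 10 largest called changes each way among genes averaging 5 CPM or more whose groups do not overlap, predicted and unnamed loci left out. Added to them are up to 4 members of each list with the smallest adjusted p, the genes of interest of the series, and genes nearly absent from 1 set. Other genes were named after their values were seen. The comparison, gene lists and markers were chosen with earlier results of these data known. Promoters came from RefSeq for 9158 of the 12764 genes. Some genes that meet the naming rule are not reported here.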

Additional observations from a re-analysis of the deposited data

Results flagged for a closer look

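The gap between the sets, JMJD3 over TRAP1, differed between the wild types and the knockouts by a test of the difference itself for 9 genes of interest. Over all genes 38.0% were called in this test. On the log2 scale the difference was 3.59 for Arg1, 1.5 for Tgfbr2, 0.72 for Il10, 0.62 for Cd274, 0.59 for Kdm6b, 0.27 for Vegfa and 0.22 for Mrc1. It was -2.29 for Apoe, and -10.76 for Trap1, which is deleted in 1 of the 4 sets. Nos2, the remaining gene of interest, gave 0.72 and was not called (edgeR quasi-likelihood test, adjusted p = 0.063).

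The same test was counted over the lists, where higher means that the signed gap, JMJD3 over TRAP1, was higher between the wild types than between the knockouts. A higher value is not always a wider gap. In the NF-kB list the median gap was 0.12 between the wild types and -0.66 between the knockouts, and in the resident macrophage genes -0.06 and -0.26. Lists with more members higher than lower had 24 higher and 3 lower in the type I interferon response, 16 higher and 2 lower in the interferon-gamma response, 11 higher and 2 lower in MHC class I presentation, 14 higher and 3 lower in classical activation, 7 higher and 3 lower in alternative activation, 17 higher and 1 lower in the NF-kB list and 15 higher and 2 lower in the immediate early genes. Others of this kind had 15 higher and 2 lower in the monocyte genes, 14 higher and 1 lower in the hypoxia response, 13 higher and 3 lower in the resident macrophage genes, 12 higher and 3 lower in glycolysis, 11 higher and 4 lower in matrix remodelling, 10 higher and 5 lower in the chemokines and 9 higher and 2 lower in checkpoint ligands and costimulators. Lists with more members lower had 2 higher and 28 lower in the cell cycle, 0 higher and 22 lower in cholesterol synthesis, 3 higher and 14 lower in the lipid-associated program, 8 higher and 10 lower in efferocytosis and complement and 3 higher and 9 lower in cholesterol efflux. Over all genes 19.1% were higher and 18.9% lower.

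Trap1 in TRAP1 KO TCM had 1 library apart from the other 3, at 0 CPM against 0.0498 to 0.0557 CPM, a gap of 0.894 of the group's range, all at the level of a single read. The group held only 3 Trap1 counts in all, so nothing is read from this gap.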

How the results depend on the processing

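Over 17 alternatives the number of genes called was 7432 to 8611, of genes higher 3457 to 5170, of genes lower 3220 to 4505 and of genes at least 2-fold 1202 to 2241. Leaving out 1 replicate in turn gave 7865 to 8161 genes called. The knockout pair gave 7299 to 7921 calls over 10 alternatives, WT TCM against WT naive 4639 to 5866 over 9, and the difference of the gaps 4865 to 5149 over 14. Upper quartile factors gave 5170 higher and 3220 lower genes, against 4025 and 4314. With the replicate block 8328 genes were called in the wild-type pair, 7921 in the knockout pair and 5866 for WT TCM against WT naive. Deviations of same-numbered libraries correlated at -0.001, 0.024 and -0.002, so the numbers were not treated as pairs. Among the genes named by rule none changed its call or direction. Upper quartile factors turned the sign of 8 list members with small changes: Hif1a to 0.00, Trem2 to 0.02, Tyrobp to 0.03, Cd36 to 0.05, C1qc to 0.06, Hmox1 to 0.05, Sirpa to 0.06 and Uqcrc2 to 0.01. Calls were fewest, at 41.6%, among the 2553 genes of lowest level. With 3 libraries a set, from replicates whose independence the labels do not give, and with line, sex and batch changing together, the precision is that of these libraries alone.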

Other observations

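Antisense and lincRNA genes were more often higher than lower in the JMJD3 WT TCM set, and processed pseudogenes more often lower. Of 287 tested antisense genes 112 were higher and 14 lower, of 292 lincRNA genes 104 were higher and 42 lower, and of 527 processed pseudogenes 77 were higher and 115 lower. Of 10942 protein-coding genes 3486 were higher and 4071 lower. Over all tested genes 31.5% were higher and 33.8% lower. Processed pseudogenes lay below both shares, and the higher share of lincRNA genes was only a little above that of all genes. An antisense gene and its partner can be told apart only where the counting used strand, on which the sources used here are silent.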
